A study of Mus musculus with 6 samples.

Results

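To examine the interferon response of the irradiated brain in the absence of legumain (gene *Lgmn*, also known as asparagine endopeptidase or AEP, a lysosomal cysteine protease), 45 interferon-stimulated genes were read from bulk RNA sequencing of the mouse cortex. The members were taken by gene symbol, and all 45 were found among the 51826 genes of the count table. The whole brain of male mice, 6 to 8 weeks old, received a single dose of 10 Gy, and the cortex was collected 3 days later. *Lgmn*+/+ BALB/c mice (*Lgmn*+/+ IR, n = 3 samples) were compared with *Lgmn*-/- mice (*Lgmn*-/- IR, n = 3 samples), also listed as BALB/c, which carry a floxed *Lgmn* allele recombined by Cre. According to the methods of the study, the allele came from 1 targeted ES cell clone whose strain is not named, and the Cre line is not described. Both groups were irradiated, so that the genotype is the only factor here and the response to radiation itself cannot be read. The sources do not state whether each sample is a separate animal, and the *p* values measure only the spread between these samples.

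Type I interferons bind a receptor made of IFNAR1 and IFNAR2, and the kinases JAK1 and TYK2 then phosphorylate STAT2. Together with IRF9 it takes part in a complex that binds the interferon-stimulated response element in the promoters of target genes. Interferon gamma acts through its own receptor, and its signal reaches genes with a gamma-activated site. The target genes encode sensors of viral nucleic acid, transcription factors that sustain the response, and effectors that block steps of viral replication. In the brain, microglia and endothelial cells are among the cells known to raise these genes, also in response to self DNA in the cytosol of damaged cells.

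Of the 45 members, 41 had enough counts to be tested, and 2 passed the test (referred to as called: an adjusted *p* value under 0.05 in the quasi-likelihood fit of edgeR over 18345 genes, with the Benjamini-Hochberg method). Both were lower in *Lgmn*-/- IR cortex: *Gbp3*, which encodes a guanylate-binding protein, was 1.92-fold lower, and *Stat2*, a signal transducer of type I interferon, was 1.47-fold lower. The 2 calls are 4.88% of the members tested. Of all genes tested, 3.33% were called in either direction and 1.68% in the lower direction. No member also had an absolute log2 fold change over 1, which 2.06% of all genes tested did. An absolute log2 fold change under 0.5 was seen in 29 of 41 members (70.7%) and in 80.8% of all genes tested. The fold change was negative in 29 of 41 members (70.7%, against 51.7% of all genes tested), and its median was -0.13 on the log2 scale, against -0.012 over all genes tested. Without adjustment, 9 members had *p* values under 0.05 in the lower direction (9.34% of all genes did) and 2, *Ifit3* and *Oas2*, in the higher direction (9.26% of all genes did).

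**Figure D1:**
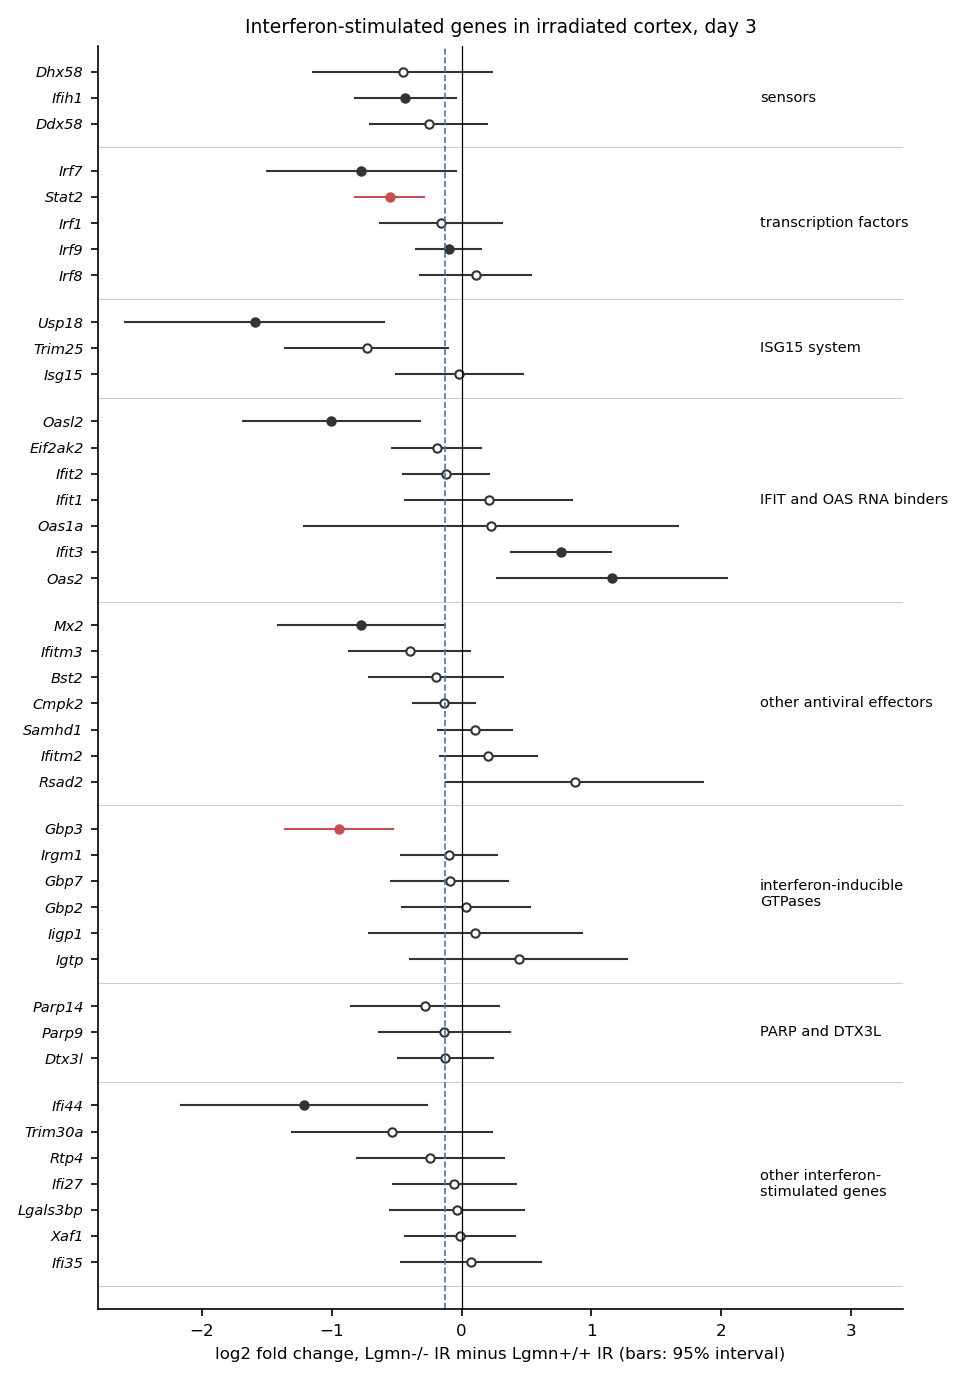
Log2 fold change (*Lgmn*-/- IR minus *Lgmn*+/+ IR, x axis) of the 41 members tested, by role, with 95% intervals from the edgeR fit. Red marks the 2 called members, *Gbp3* and *Stat2*, filled points mark members whose 3 + 3 libraries do not overlap, and the dashed line is the members' median of -0.13.

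The libraries of the 2 genotypes did not overlap for 11 members. In 9 of them all 3 *Lgmn*-/- IR libraries lay below all *Lgmn*+/+ IR libraries in CPM (counts scaled to the library size), namely *Gbp3*, *Stat2*, *Usp18*, *Ifi44*, *Oasl2*, *Mx2*, *Irf7*, *Ifih1* and *Irf9*. This is 22.0% of the members tested, and 13.3% of all genes tested were separated in that direction. In 2 members, *Ifit3* and *Oas2*, all *Lgmn*-/- IR libraries lay above, which is 4.88% of the members and 12.4% of all genes tested. *Oas2* passed the count filter only through the *Lgmn*-/- IR libraries, so the filter itself favored its place among the higher members.

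The promoters of 6 members are shown because these members hold the called genes (*Gbp3*, *Stat2*), the separated member in the opposite direction with the lowest *p* value (*Ifit3*), its neighbor in the same gene cluster (*Ifit1*), the member with the most matches to the response element (*Isg15*), and a separated member without a match (*Oasl2*). Each runs 5' to 3' from 250 bases before to 50 bases after the start, as given by RefSeq for GRCm38.p6. The capitals mark each match to the interferon-stimulated response element, written as GAAANNGAAA or, on the other strand, TTTCNNTTTC, where overlapping matches run together. The windows are chr3:142559794-142560093 (plus strand), chr10:128270248-128270547 (plus), chr19:34583279-34583578 (plus), chr19:34640639-34640938 (plus), chr4:156200769-156201068 (minus) and chr5:114896684-114896983 (plus).
Gbp3: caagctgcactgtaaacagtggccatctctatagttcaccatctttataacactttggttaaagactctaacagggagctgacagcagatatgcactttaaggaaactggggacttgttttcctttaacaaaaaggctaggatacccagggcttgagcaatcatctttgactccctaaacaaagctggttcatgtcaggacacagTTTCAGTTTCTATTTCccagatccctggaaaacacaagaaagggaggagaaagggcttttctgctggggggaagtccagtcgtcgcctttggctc
Stat2: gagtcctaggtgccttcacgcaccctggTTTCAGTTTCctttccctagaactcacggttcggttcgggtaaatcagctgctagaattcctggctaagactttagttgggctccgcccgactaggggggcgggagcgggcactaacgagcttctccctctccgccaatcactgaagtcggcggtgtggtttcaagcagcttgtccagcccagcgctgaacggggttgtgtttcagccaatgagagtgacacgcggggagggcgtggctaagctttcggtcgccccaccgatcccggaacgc
Ifit3: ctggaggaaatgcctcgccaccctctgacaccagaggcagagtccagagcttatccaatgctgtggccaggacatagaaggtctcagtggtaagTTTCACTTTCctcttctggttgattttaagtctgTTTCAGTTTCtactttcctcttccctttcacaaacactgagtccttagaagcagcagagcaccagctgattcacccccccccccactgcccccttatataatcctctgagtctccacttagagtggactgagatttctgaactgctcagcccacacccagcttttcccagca
Ifit1: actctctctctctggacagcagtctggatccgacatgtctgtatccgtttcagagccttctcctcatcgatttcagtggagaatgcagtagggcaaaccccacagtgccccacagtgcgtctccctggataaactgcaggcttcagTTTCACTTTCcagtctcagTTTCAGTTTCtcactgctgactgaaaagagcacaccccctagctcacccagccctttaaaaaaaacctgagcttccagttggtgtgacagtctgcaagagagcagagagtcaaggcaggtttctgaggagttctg
Isg15: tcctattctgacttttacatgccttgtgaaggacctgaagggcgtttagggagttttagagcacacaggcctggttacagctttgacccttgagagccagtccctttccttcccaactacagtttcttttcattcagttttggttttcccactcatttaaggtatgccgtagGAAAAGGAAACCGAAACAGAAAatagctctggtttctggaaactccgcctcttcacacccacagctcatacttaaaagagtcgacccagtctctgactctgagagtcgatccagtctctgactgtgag
Oasl2: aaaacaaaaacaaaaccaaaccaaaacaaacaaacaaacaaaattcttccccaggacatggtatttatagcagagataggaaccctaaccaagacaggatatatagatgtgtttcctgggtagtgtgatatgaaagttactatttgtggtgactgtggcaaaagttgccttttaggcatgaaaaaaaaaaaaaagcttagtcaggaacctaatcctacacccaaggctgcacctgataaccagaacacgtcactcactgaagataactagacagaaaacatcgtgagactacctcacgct

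*Gbp3* held 2 overlapping matches that begin 45 and 39 bases before the start, *Stat2* held 1 match that begins 222 bases before it, and *Isg15* held 3 overlapping matches that begin 78, 72 and 66 bases before it. The matches of *Ifit3* begin 156 and 122 bases before the start and those of *Ifit1* 104 and 85 bases before it. *Oasl2* held none in this window. RefSeq promoters were found for 34 of the 45 members, and 19 of these genes (55.9%) held a match, against 3.99% of all 27025 genes with a promoter of the same length. The gamma-activated site, written as TTCNNNGAA, which reads the same on both strands, was found in 11 of the 34 (32.4%), against 9.55% of all genes. In *Bst2* and *Ifitm3* matches of the 2 motifs overlap. The members are known interferon targets, so these shares describe the list and not the samples. The 18 tested members with a response element had a median log2 fold change of -0.10 (11 negative, range -0.94 to 0.87), and the 14 with a promoter but no match had a median of -0.12 (11 negative, range -1.22 to 0.11). For the 9 tested members without a promoter in the table the median was -0.24.

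**Figure D2:**
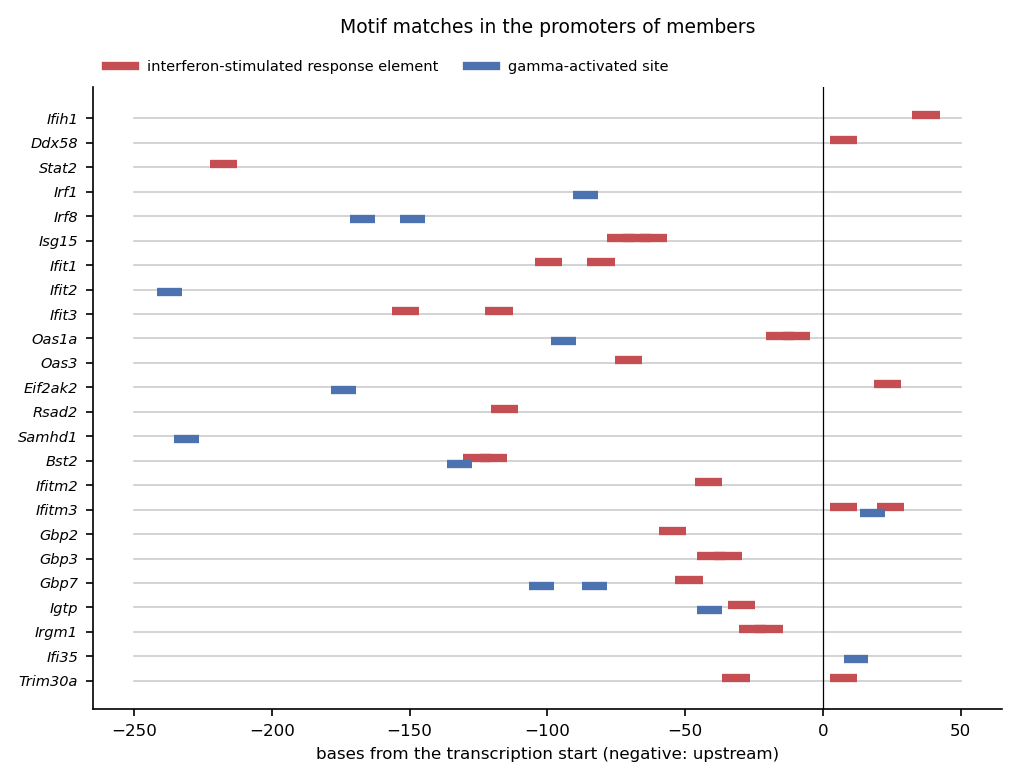
Matches to the interferon-stimulated response element (red) and the gamma-activated site (blue) in the 24 members with either match, by distance in bases from the transcription start (x axis); *Trim30a* has 2 start sites drawn on 1 line. Matches of the response element lie before the start in most of these members and after it in *Ifih1*, *Ddx58*, *Eif2ak2*, *Ifitm3* and at 1 start of *Trim30a*.

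Among the transcription factors, *Stat2* had 727, 663 and 774 counts in *Lgmn*+/+ IR samples, compared with 531, 537 and 449 in *Lgmn*-/- IR samples. The groups were well apart, at 16.5 ± 0.892 and 11.3 ± 0.904 CPM (mean ± SD, n = 3 each), with a log2 fold change of -0.55 (standard error, SE, 0.11, edgeR adjusted *p* = 0.0496). *Irf9*, whose product joins STAT2 in the DNA-binding complex, had counts of 406, 396 and 421 in the *Lgmn*+/+ IR libraries and of 390, 410 and 374 in those of *Lgmn*-/- IR. Its CPM did not overlap between the genotypes (9.34 ± 0.152 and 8.71 ± 0.166), but the difference was small, at -0.10 on the log2 scale (95% interval -0.35 to 0.15). *Irf7*, the factor that amplifies type I interferon production, had counts of 74, 85 and 118 in *Lgmn*+/+ IR against 61, 36 and 68 in *Lgmn*-/- IR. These did not overlap as CPM, and the log2 fold change of -0.77 did not pass the test (95% interval -1.50 to -0.043, edgeR adjusted *p* = 0.247). *Irf1*, an early target of interferon gamma, had 281, 270 and 209 counts in *Lgmn*+/+ IR samples, compared with 238, 199 and 263 in *Lgmn*-/- IR samples. *Irf8*, which microglia need for their identity, had counts of 194, 218 and 177 in the *Lgmn*+/+ IR libraries and of 254, 219 and 182 in those of *Lgmn*-/- IR. Both overlapped between the genotypes, with log2 fold changes of -0.16 (95% interval -0.63 to 0.31) and 0.11 (95% interval -0.32 to 0.54). *Irf1* shares 135 exon bases with *Gm17334* on the opposite strand, which had a log2 fold change of 2.65 (edgeR adjusted *p* = 0.0128), and reads of this pair cannot be told apart without strand. The summed CPM of the 5 factors ranged from 37.4 to 39.4 in *Lgmn*+/+ IR and from 30.2 to 33.2 in *Lgmn*-/- IR, and *Stat2* was the most abundant of them in CPM. In FPKM, which is also scaled to transcript length, *Stat2* was above *Irf9* in *Lgmn*+/+ IR (4.05 and 3.37) and below it in *Lgmn*-/- IR (2.79 and 3.02).

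The guanylate-binding proteins and the immunity-related GTPases are interferon-induced GTPases that attack the vacuoles of intracellular pathogens. *Gbp3* had counts of 189, 209 and 198 in *Lgmn*+/+ IR against 117, 90 and 111 in *Lgmn*-/- IR. The groups were clearly separated, at 4.55 ± 0.285 and 2.37 ± 0.375 CPM, with a log2 fold change of -0.94 (SE 0.18, edgeR adjusted *p* = 0.0374). The other 5 members of this class did not follow it, and all had overlapping libraries. *Gbp2* had 96, 122 and 137 counts in *Lgmn*+/+ IR samples, compared with 139, 104 and 129 in *Lgmn*-/- IR samples, with a log2 fold change of 0.034 (95% interval -0.46 to 0.52). *Igtp* had counts of 98, 112 and 133 in the *Lgmn*+/+ IR libraries and of 182, 222 and 77 in those of *Lgmn*-/- IR, where replicate 3 was the lowest of all 6 libraries and the other two were the highest (log2 fold change 0.44, 95% interval -0.40 to 1.28, and -0.57 without *Lgmn*-/- IR replicates 1 and 2). Its exons share 162 bases with *Irgm2*, which had a log2 fold change of 0.95 (edgeR adjusted *p* = 0.185). *Irgm1*, which regulates the other immunity-related GTPases, had counts of 334, 373 and 354 in *Lgmn*+/+ IR against 304, 314 and 400 in *Lgmn*-/- IR, with a log2 fold change of -0.10 (95% interval -0.47 to 0.27). *Gbp7* and *Iigp1* had log2 fold changes of -0.093 and 0.11 (95% intervals -0.54 to 0.36 and -0.72 to 0.93).

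*Gbp3* lies on chr3:142560026-142573209 in a row of related genes (GRCm38, GENCODE M21). *Gbp7* precedes it at chr3:142530342-142550149. On the other side follow *Gbp2b*, at chr3:142594847-142619179, and *Gbp2*, at chr3:142620602-142638008. *Gbp2b*, which is no member, had 60, 83 and 49 counts in *Lgmn*+/+ IR samples, compared with 4, 6 and 0 in *Lgmn*-/- IR samples. It was 19.2-fold lower (log2 fold change -4.27, SE 0.66, edgeR adjusted *p* = 0.0189; -4.94 to -3.71 with 1 library left out, called only without *Lgmn*-/- IR replicate 2 or 3), whereas the value of its neighbor *Gbp2* was 0.034, as given above. *Gbp11*, at chr5:105323042-105346472, likewise had counts of 52, 71 and 100 in the *Lgmn*+/+ IR libraries and of 8, 2 and 8 in those of *Lgmn*-/- IR (12.4-fold lower, log2 fold change -3.63, SE 0.49, edgeR adjusted *p* = 0.0112). *Gbp2b* and *Gbp11* passed the count filter only through the *Lgmn*+/+ IR libraries, where they are high. The annotation classes *Gbp11* and the member *Mx2* as polymorphic pseudogenes, that is, genes intact in some strains only. The calls of *Gbp3* and *Stat2* rest on all 6 libraries. With *Lgmn*+/+ IR replicate 1, 2 or 3 left out, the adjusted *p* value of *Gbp3* was 0.0888, 0.159 or 0.112 by edgeR, and with *Lgmn*-/- IR replicate 1, 2 or 3 left out it was 0.0736, 0.0644 or 0.0997. For *Stat2* it was 0.135, 0.143 or 0.160 without a *Lgmn*+/+ IR library, in the same order, and 0.101, 0.0799 or 0.141 without a *Lgmn*-/- IR library. The direction held in each of these fits, and the log2 fold change ranged from -1.03 to -0.81 for *Gbp3* and from -0.60 to -0.49 for *Stat2*. *Stat2* lay at the threshold also with all libraries, with an adjusted *p* value of 0.0503 by edgeR with RLE size factors. DESeq2 called 5 members (*Gbp3*, *Stat2*, *Usp18* and *Oasl2* lower, *Ifit3* higher). The share of all genes that DESeq2 called is not given here, so it is open whether this tool called more genes of every kind.

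ISG15 is a ubiquitin-like protein that is attached to other proteins, and USP18 removes it and also restrains the type I interferon receptor. *Usp18* had counts of 66, 66 and 82 in *Lgmn*+/+ IR against 29, 10 and 33 in *Lgmn*-/- IR. All *Lgmn*-/- IR libraries were below the lowest *Lgmn*+/+ IR library, and the 3.02-fold difference was the largest of the members in the lower direction, but it did not pass the test (log2 fold change -1.59, 95% interval -2.59 to -0.60, edgeR adjusted *p* = 0.104). *Isg15* itself had 68, 73 and 77 counts in *Lgmn*+/+ IR samples, compared with 80, 83 and 59 in *Lgmn*-/- IR samples. Its libraries overlapped, and the log2 fold change of -0.017 had a 95% interval of -0.50 to 0.47. *Trim25*, a ubiquitin ligase that acts on the sensor RIG-I, had counts of 199, 374 and 345 in the *Lgmn*+/+ IR libraries and of 224, 199 and 146 in those of *Lgmn*-/- IR, which overlapped through *Lgmn*+/+ IR replicate 1 (log2 fold change -0.73, edgeR adjusted *p* = 0.211). Outside the members, *Ube2l6*, which encodes the E2 enzyme that passes ISG15 to its substrates, was called in the higher direction. It had counts of 194, 196 and 214 in *Lgmn*+/+ IR against 469, 425 and 349 in *Lgmn*-/- IR (2.00-fold higher, SE of the log2 fold change 0.15, edgeR adjusted *p* = 0.0151). *Uba7*, the E1 enzyme of the same chain, had a log2 fold change of -0.36 (edgeR adjusted *p* = 0.421).

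The IFIT proteins bind viral RNA at its 5' end, and the OAS enzymes sense double-stranded RNA and activate RNase L. Members of this class went in both directions. *Ifit3* had 165, 226 and 199 counts in *Lgmn*+/+ IR samples, compared with 326, 393 and 317 in *Lgmn*-/- IR samples. No library overlapped, and it was 1.70-fold higher in *Lgmn*-/- IR (log2 fold change 0.77, SE 0.16, 95% interval 0.38 to 1.15), short of the threshold (edgeR adjusted *p* = 0.0546). *Ifit1* had counts of 47, 85 and 71 in the *Lgmn*+/+ IR libraries and of 95, 73 and 73 in those of *Lgmn*-/- IR, which overlapped (log2 fold change 0.21, 95% interval -0.43 to 0.85). *Ifit2* had a log2 fold change of -0.12 (95% interval -0.45 to 0.21). These genes are neighbors on chromosome 19, where *Ifit2* lies at chr19:34550694-34576419, *Ifit3* at chr19:34583531-34588731 and *Ifit1* at chr19:34640871-34650009. The value of *Ifit3* is uncertain, because 97.4% of its longest coding transcript aligned with at least 95% identity to *Ifit3b* (chr19:34607970-34613401), and reads can be split between such copies. *Ifit3b* had counts of 190, 256 and 253 in *Lgmn*+/+ IR against 228, 226 and 198 in *Lgmn*-/- IR, with a log2 fold change of -0.14 (edgeR adjusted *p* = 0.691).

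*Oasl2*, an OAS-like protein with ubiquitin-like domains, had 119, 212 and 237 counts in *Lgmn*+/+ IR samples, compared with 116, 78 and 95 in *Lgmn*-/- IR samples. Its CPM did not overlap, although *Lgmn*+/+ IR replicate 1 lay close to *Lgmn*-/- IR replicate 1 (2.79 and 2.61 CPM), and the 2.01-fold lower value did not pass the test (95% interval of the log2 fold change -1.69 to -0.32, edgeR adjusted *p* = 0.127). *Oas2* had counts of 5, 7 and 7 in the *Lgmn*+/+ IR libraries and of 16, 12 and 16 in those of *Lgmn*-/- IR. The libraries were separate, with a 2.23-fold higher value in *Lgmn*-/- IR that did not pass the test (log2 fold change 1.16, 95% interval 0.28 to 2.04, edgeR adjusted *p* = 0.165). The counts were few, and *Oas2* entered the test only through the *Lgmn*-/- IR libraries. *Oas1a* ranged from 8 to 35 counts in both groups together, and 98.7% of its transcript aligned to the near-identical *Oas1g*. *Eif2ak2*, the RNA-activated kinase PKR, had a log2 fold change of -0.19 (95% interval -0.53 to 0.15). *Oas3* had 0 to 5 counts and *Oasl1* 4 to 16 counts per library, too few for the test.

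**Figure D3:**
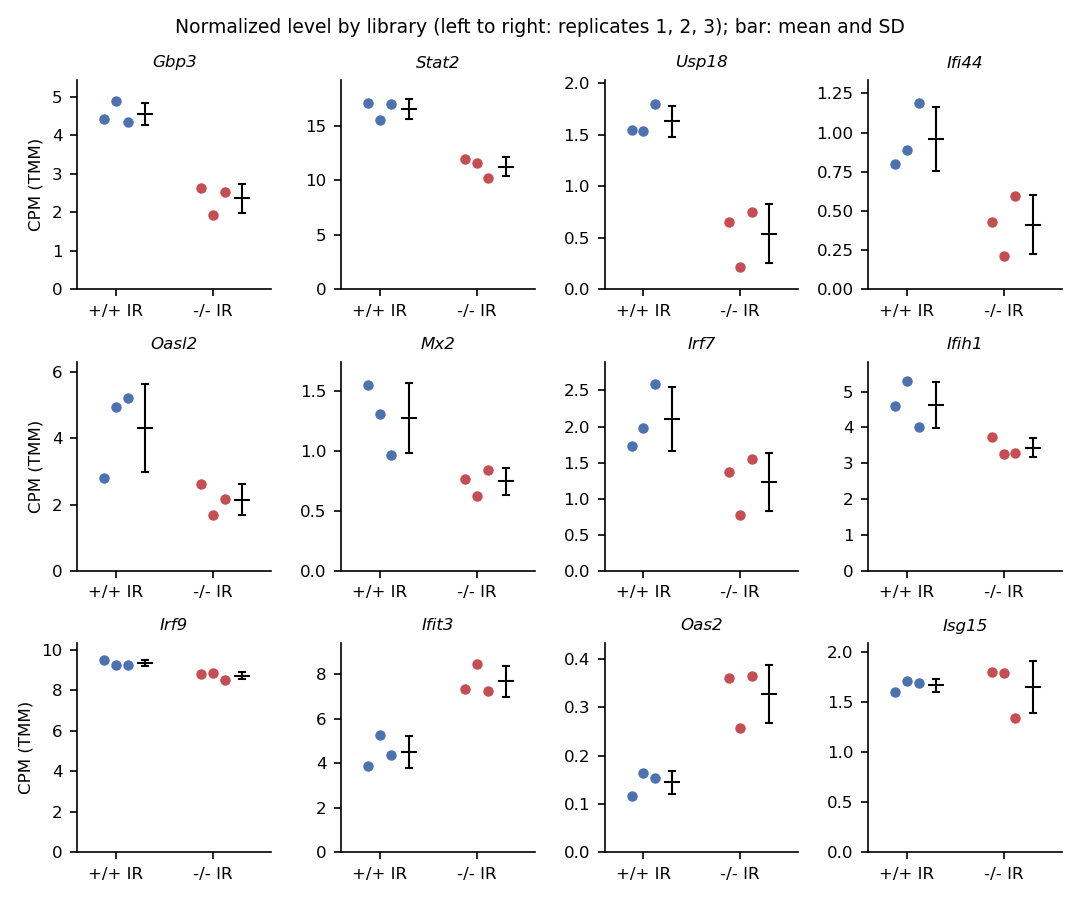
TMM-normalized CPM (y axis, from 0) of 12 members in each library, with the mean and SD of each genotype (n = 3). The 9 members in which *Lgmn*-/- IR lies wholly below come first, *Ifit3* and *Oas2* lie wholly above, and *Isg15* overlaps.

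The 3 cytosolic sensors that were tested had negative fold changes, and none of them passed the test. *Ifih1*, which encodes MDA5, had counts of 196, 227 and 182 in *Lgmn*+/+ IR against 166, 152 and 144 in *Lgmn*-/- IR. Its libraries did not overlap as CPM, and the log2 fold change was -0.43 (95% interval -0.82 to -0.041, edgeR adjusted *p* = 0.230). *Ddx58*, which encodes RIG-I, had 205, 163 and 228 counts in *Lgmn*+/+ IR samples, compared with 197, 146 and 169 in *Lgmn*-/- IR samples, which overlapped (log2 fold change -0.25, 95% interval -0.71 to 0.20). *Dhx58*, the third member of this family, LGP2, had a log2 fold change of -0.45 (95% interval -1.14 to 0.23). *Zbp1*, a sensor of Z-form nucleic acid, had 0 to 13 counts per library and was not tested.

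Among the other antiviral effectors, *Mx2* had counts of 66, 56 and 44 in the *Lgmn*+/+ IR libraries and of 34, 29 and 37 in those of *Lgmn*-/- IR. The libraries were separate as CPM, and the log2 fold change of -0.77 did not pass the test (95% interval -1.42 to -0.13, edgeR adjusted *p* = 0.199). *Mx1* had 2 to 9 counts per library and was not tested. *Ifitm3*, a membrane protein that blocks viral entry, had the highest mean FPKM of the members over all 6 libraries, at 18.6 ± 2.08 FPKM in *Lgmn*+/+ IR and 13.7 ± 3.80 in *Lgmn*-/- IR, where *Ifi27* was at 14.1 ± 4.58. It had counts of 525, 644 and 679 in *Lgmn*+/+ IR against 617, 443 and 379 in *Lgmn*-/- IR, where replicate 1 lay within the *Lgmn*+/+ IR range and the other two below it (log2 fold change -0.40, 95% interval -0.87 to 0.069). Its paralog *Ifitm2* had 343, 404 and 401 counts in *Lgmn*+/+ IR samples, compared with 443, 391 and 523 in *Lgmn*-/- IR samples (log2 fold change 0.21, 95% interval -0.17 to 0.58). *Bst2*, or tetherin, which holds budding virus at the cell surface, had counts of 151, 235 and 195 in the *Lgmn*+/+ IR libraries and of 183, 145 and 192 in those of *Lgmn*-/- IR, which overlapped (log2 fold change -0.20, 95% interval -0.71 to 0.32).

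*Rsad2*, which encodes viperin, and *Cmpk2*, which supplies its nucleotide substrate, are neighbors on chromosome 12. *Rsad2* had counts of 25, 39 and 23 in *Lgmn*+/+ IR against 75, 62 and 28 in *Lgmn*-/- IR, with a log2 fold change of 0.87 (95% interval -0.12 to 1.86), which turned to -0.055 without *Lgmn*-/- IR replicates 1 and 2. *Cmpk2* had far more, with 1019, 953 and 1207 counts in the *Lgmn*+/+ IR libraries, compared with 1011, 984 and 976 in *Lgmn*-/- IR samples, and a log2 fold change of -0.13 (95% interval -0.38 to 0.11). *Samhd1*, which depletes deoxynucleotides, had a log2 fold change of 0.10 in counts (95% interval -0.18 to 0.39) and of -0.0056 on the log2(FPKM + 1) scale.

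*Parp9* and *Dtx3l*, whose products work as a pair in ADP-ribosylation and ubiquitination, had log2 fold changes of -0.13 and -0.13, with 95% intervals of -0.64 to 0.37 and -0.49 to 0.24. Their exons share 458 bases on opposite strands, and the counting is not stated to use strand. *Parp14*, a mono-ADP-ribosyltransferase, had counts of 88, 130 and 135 in the *Lgmn*+/+ IR libraries and of 123, 87 and 88 in those of *Lgmn*-/- IR (log2 fold change -0.28, 95% interval -0.85 to 0.29). All 3 overlapped between the genotypes.

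Of the remaining interferon-stimulated genes, *Ifi44* had counts of 34, 38 and 54 in *Lgmn*+/+ IR against 19, 10 and 26 in *Lgmn*-/- IR. It was 2.32-fold lower without overlap, and the difference did not pass the test (log2 fold change -1.22, 95% interval -2.16 to -0.27, edgeR adjusted *p* = 0.172). *Trim30a* had 49, 43 and 85 counts in *Lgmn*+/+ IR samples, compared with 50, 32 and 42 in *Lgmn*-/- IR samples, which overlapped (log2 fold change -0.54, 95% interval -1.31 to 0.23). *Ifi27*, at chr12:103434211-103440239, lies 0.994 Mb from *Lgmn* and is the only member within 10 Mb of it. It had counts of 615, 658 and 636 in the *Lgmn*+/+ IR libraries and of 625, 832 and 444 in those of *Lgmn*-/- IR, so the *Lgmn*-/- IR libraries held both the highest and the lowest value (log2 fold change -0.055, 95% interval -0.53 to 0.42). *Lgals3bp*, a secreted galectin ligand, had counts of 562, 736 and 794 in *Lgmn*+/+ IR against 861, 514 and 709 in *Lgmn*-/- IR (log2 fold change -0.037, 95% interval -0.55 to 0.48). *Rtp4*, *Ifi35* and *Xaf1* had log2 fold changes of -0.24, 0.073 and -0.012.

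The *Lgmn*-/- IR libraries differed among themselves in the level of the members. As deviation from the *Lgmn*+/+ IR mean on the log2(CPM + 0.5) scale, the median over the 41 members was -0.089, 0.072 and 0.021 in *Lgmn*+/+ IR, against -0.014, -0.23 and -0.21 in *Lgmn*-/- IR, and over all genes tested it stayed between -0.018 and 0.0036. *Lgmn*-/- IR replicate 1 thus lay within the *Lgmn*+/+ IR range, and replicates 2 and 3 lay below it. *Lgmn*-/- IR replicate 2 was the lowest of the 6 libraries for 20 of the 41 members. The share of all genes tested that were lowest in this library is not given here, so it is open whether this holds for genes of every kind. The summed CPM of the 45 members overlapped, at 207, 232 and 229 in *Lgmn*+/+ IR against 217, 189 and 195 in *Lgmn*-/- IR.

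**Figure D4:**
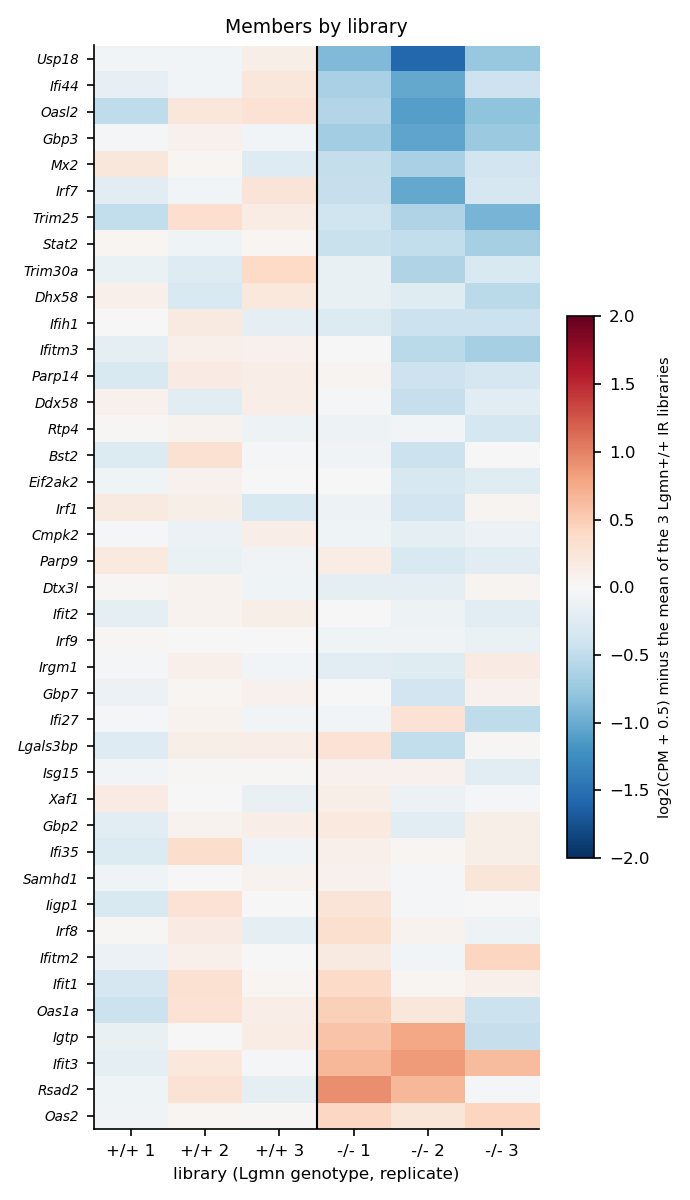
Deviation of each tested member from the mean of the 3 *Lgmn*+/+ IR libraries, in log2(CPM + 0.5) units (color), per library (columns), sorted by fold change. The lower members are lowest in *Lgmn*-/- IR replicate 2 in many rows, and *Ifit3* and *Oas2* are higher in all 3 *Lgmn*-/- IR libraries.

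The library totals were 41874462 to 46829441 counts. At this depth and with 3 samples per genotype, the 95% interval of a member's log2 fold change had a median half-width of 0.49 (0.24 to 1.44). These intervals are not adjusted for the number of genes. Larger differences could still miss the adjusted threshold, as *Usp18* (-1.59) and *Ifi44* (-1.22) did. *Lgmn* itself had 5558, 5528 and 5775 counts in *Lgmn*+/+ IR samples, compared with 3703, 3269 and 4109 in *Lgmn*-/- IR samples. It was 1.56-fold lower (log2 fold change -0.64, SE 0.12, edgeR adjusted *p* = 0.0315), without overlap, and the counts are over the whole gene and do not separate the floxed part.

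Interferon itself was at or near the floor in both genotypes. None of the 21 ligand genes had enough counts to be tested, and *Ifnb1* and *Ifng* had 0 counts in every library, which allows at most 3 counts per library at this depth. Of 10 receptors and kinases, *Ifnlr1* had 4 to 9 counts per library and was not tested, and 0 of 9 tested were called by edgeR, with none at an unadjusted *p* value under 0.05. In 2 of the 9, *Ifnar1* and *Jak2* (log2 fold changes 0.21 and 0.29), the *Lgmn*-/- IR libraries lay wholly above (22.2%, against 12.4% of all genes tested). *Ifngr1* had a log2 fold change of -0.049.

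Of the genes that induce interferon, 1 of 14 tested was called. *Tlr3*, the endosomal receptor for double-stranded RNA, had counts of 216, 196 and 251 in *Lgmn*+/+ IR against 426, 445 and 574 in *Lgmn*-/- IR (2.13-fold higher, log2 fold change 1.09, SE 0.17, edgeR adjusted *p* = 0.0196). Its adaptor *Ticam1* had 265, 215 and 226 counts in *Lgmn*+/+ IR samples, compared with 293, 338 and 452 in *Lgmn*-/- IR samples, separate but not called (log2 fold change 0.58, edgeR adjusted *p* = 0.197). *Irf3*, the factor downstream of both, had a log2 fold change of 0.35 (edgeR adjusted *p* = 0.296). *Mb21d1*, the DNA sensor cGAS, had counts of 49, 33 and 24 in the *Lgmn*+/+ IR libraries and of 12, 18 and 13 in those of *Lgmn*-/- IR (log2 fold change -1.35, edgeR adjusted *p* = 0.120). Of 7 negative regulators none was called by edgeR, and 6 had positive fold changes. In 3 the *Lgmn*-/- IR libraries lay wholly above, as in 12.4% of all genes tested. Unadjusted *p* values under 0.05 were seen in 2 (*Socs3* and *Irf2*, log2 fold changes 0.41 and 0.55), and in 9.26% of all genes in the higher direction. The summed CPM of the 7 ranged from 255 to 264 in *Lgmn*+/+ IR and from 278 to 321 in *Lgmn*-/- IR. Most of this sum is *Adar*, at 171 ± 3.67 and 190 ± 12.9 CPM (log2 fold change 0.16, edgeR adjusted *p* = 0.370). Of 45 other interferon-stimulated genes tested, 3 were called: *Ube2l6* in the higher and *Gbp2b* and *Gbp11* in the lower direction. *Gbp2b* and *Gbp11* entered the test only through the *Lgmn*+/+ IR libraries, so the filter itself favored their direction. In all, 4 of 75 tested pathway genes outside the members were called (5.33%, beside 3.33% of all genes), and 37 of the 75 fold changes were negative (49.3%), with a median of 0.020. With 1 library left out, between 0 and 5 of these genes were called, and none was without *Lgmn*+/+ IR replicate 2. *Tlr3* and *Ube2l6* were not called without *Lgmn*+/+ IR replicate 1, 2 or 3 (adjusted *p* values of 0.0666, 0.101 and 0.0629 for *Tlr3* and 0.0510, 0.0835 and 0.0651 for *Ube2l6* by edgeR).

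Markers of cell types were read beside the members, since in bulk tissue fewer cells of a type and less RNA per cell cannot be told apart. Most microglial markers were on the lower side: 13 of 14 tested had a negative fold change (92.9%, against 51.7% of all genes tested), with a median of -0.18. The exception was *Aif1*, which encodes Iba1, at 0.46 with overlapping libraries (edgeR adjusted *p* = 0.286). Of the 14, 5 lay wholly below (35.7%, against 13.3% of all genes). None was called by edgeR, and 4 had unadjusted *p* values under 0.05, all lower (28.6%, against 9.34% of all genes). *Csf1r*, the receptor that maintains microglia, had counts of 2455, 2790 and 2666 in *Lgmn*+/+ IR against 2106, 2169 and 1917 in *Lgmn*-/- IR (log2 fold change -0.40, edgeR adjusted *p* = 0.0731), and *Tmem119* and *P2ry12* had log2 fold changes of -0.016 and -0.10. The summed CPM of the 15 microglial markers ranged from 319.6 to 345 in *Lgmn*+/+ IR and from 266 to 299 in *Lgmn*-/- IR. *Itgam*, read from a single gene ID of that name, had 0 to 53 counts per library and was not tested. Whether another gene ID holds counts of *Itgam* was not examined. The part of microglia in the lower values of *Stat2*, *Gbp3* and the other members was not tested.

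Of the leukocyte markers, *Cd3e*, *Nkg7* and *Ms4a1* had 0 counts in every library. Of 3 tested, *Ly6c2*, a monocyte marker, was called in the lower direction (287, 529 and 371 counts in the *Lgmn*+/+ IR libraries, compared with 43, 35 and 45 in *Lgmn*-/- IR samples). The other tested markers, *Ptprc* and *Cd4*, overlapped, with log2 fold changes of 0.31 and -0.80. *Ccr2* had 1 to 8 counts and *Plac8* 0 to 8 counts per library, too few for the test. *Ly6c1*, a related gene in the endothelial list, had a log2 fold change of 0.60. A difference in monocyte number was not tested. The summed CPM of the leukocyte list ranged from 12.9 to 36.9 in *Lgmn*+/+ IR and from 4.31 to 27.9 in *Lgmn*-/- IR. None of 8 endothelial markers was called by edgeR, with a median log2 fold change of 0.45, and the 1 marker with an unadjusted *p* value under 0.05, *Slco1a4*, was at -0.86. Oligodendrocyte markers were called lower in 4 of 7 (57.1%, against 1.68% of all genes tested), with a median log2 fold change of -0.53. Their summed CPM ranged from 2544 to 3088 in *Lgmn*+/+ IR and from 1837 to 2004 in *Lgmn*-/- IR. Of 6 astrocyte markers 1 was called higher, and 4 lay wholly above (66.7%, against 12.4% of all genes), with a median of 0.30. The part of these cell types in the members' values was not tested. None of 8 neuronal markers was called, with none at an unadjusted *p* value under 0.05.

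Red blood cell markers stood far apart, with 5 of 6 tested called in the higher direction. Their summed CPM was 71.7 to 79.0 in *Lgmn*+/+ IR against 2341, 1798 and 292 in *Lgmn*-/- IR replicates 1, 2 and 3. With the 2 *Lgmn*-/- IR libraries richest in hemoglobin left out (chosen after their values were seen), the log2 fold change was -0.84 for *Gbp3*, -0.68 for *Stat2*, -1.11 for *Usp18*, -0.99 for *Oasl2*, 0.69 for *Ifit3* and 1.32 for *Oas2*. The remaining *Lgmn*-/- IR library is a single one and still above *Lgmn*+/+ IR in these markers. In that fit of 3 libraries against 1 no member was called by edgeR, and the members' median was -0.25, against -0.040 over all genes tested. The part of blood in the members' values was not tested.

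**Figure D5:**
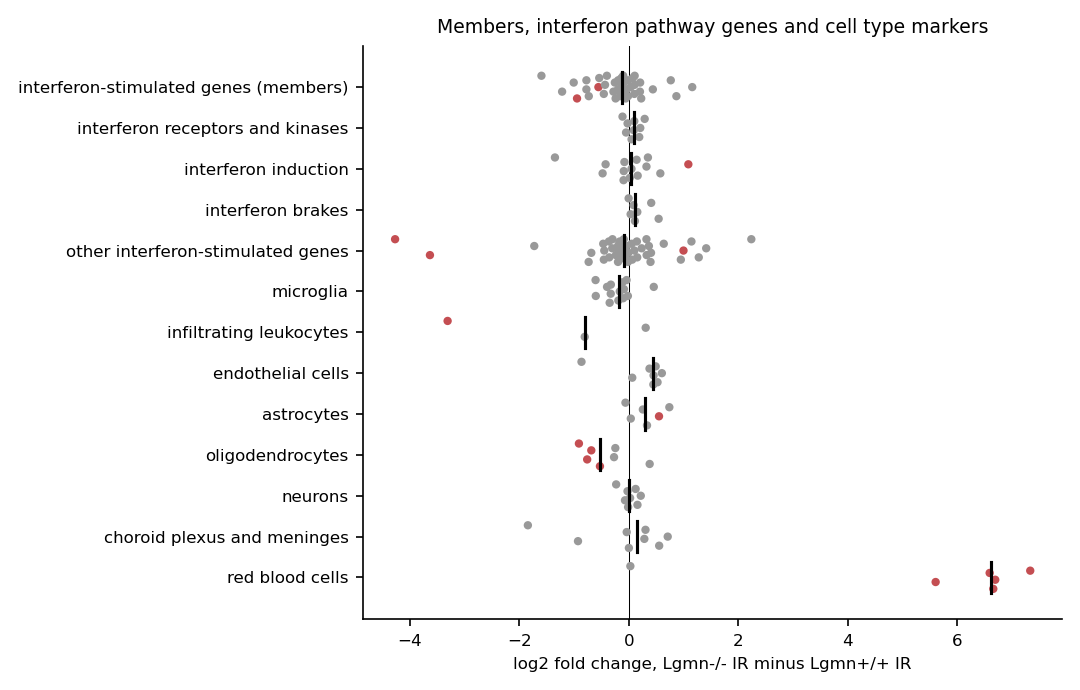
Log2 fold change (*Lgmn*-/- IR minus *Lgmn*+/+ IR, x axis) of the tested genes of each list, with called genes in red and the list's median as a black bar. The members' median is -0.13. Among the cell type markers the median is below 0 for microglia (-0.18), oligodendrocytes (-0.53) and leukocytes (-0.80, 3 genes). It is above 0 for neurons (0.0067), choroid plexus and meninges (0.14), astrocytes (0.30) and endothelial cells (0.45), and far above 0 for red blood cells.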

How the data were processed

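The 6 cortex samples were grouped by genotype as their labels give it. The authors filtered the reads with Trimmomatic 0.36 (processing notes, which name GRCm38) and used HISAT2 for mapping. A raw count for every gene was deposited without normalization. FPKM values were computed by the authors with StringTie and deposited for the same genes. Whether counting used strand, and the annotation, are not given in the sources used here. Libraries of one genotype differed by more than sampling noise and each was kept as a sample.

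Counts were fitted with edgeR 4.0.16 in R 4.3.3 (TMM, filterByExpr, quasi-likelihood F-test on genotype, Benjamini-Hochberg over 18345 genes), tested on simulated data. The study names limma; edgeR was used because the files hold counts, and limma 3.58.1 (voom, and log2(FPKM + 1)) and DESeq2 1.42.0 were alternatives. Called means an adjusted *p* value under 0.05. Standard errors come from the F statistic and intervals are 95% intervals. CPM are TMM-normalized. Intervals and floors cover counting error and the spread between libraries only, since reads sequenced without molecular identifiers may repeat the same molecule. No set test was run.

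The members, lists and tests were chosen with earlier results of these data known. All 45 members are named by role. Counts per library are given for members that were called or separated, for the 5 with the highest mean FPKM and for a fixed list of 20. *Rsad2*, *Trim25*, *Ifit3b*, *Jak2*, *Ticam1*, *Mb21d1*, *Uba7*, *Socs3*, *Irf2*, *Slco1a4*, *Csf1r*, *Tmem119* and *P2ry12* were given values after these were seen. Gene positions come from GENCODE M21, which holds 51633 of the 51826 gene IDs. Promoters are RefSeq sequences, printed for 6 members. Transcripts of the members were aligned to all transcripts with blastn, and copies are named where 80% or more of the transcript matched at 95% identity or more. Exons of 16 members overlap another gene. One gene of the pathway lists is not reported here by name.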

Additional observations from a re-analysis of the deposited data

How the results depend on the processing

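The number of members called depended on the tool and the filter, and the cause was not tested. It was 2 by edgeR with TMM and with upper quartile scaling, 1 with RLE size factors, with a minimum of 10 counts in each library, with limma-voom and with limma on log2(FPKM + 1), and 5 with DESeq2 (*Gbp3*, *Stat2*, *Usp18*, *Oasl2* and *Ifit3*). It was 0 with an absolute log2 fold change over 1 required, with no filter on low counts, with limma on log2(FPKM + 0.1) or on log2(FPKM + 1) without a filter, and without the 2 *Lgmn*-/- IR libraries richest in hemoglobin, a setting chosen after seeing the data. With 1 library left out it was 0 in each fit. The share of all genes called under these other settings is not given here, and the 3.33% given above is that of edgeR with TMM. The median of the members stayed negative in all 17 settings and moved by more than the spread between libraries only without those 2 libraries, to -0.25. Pathway genes called numbered 4, 6 with DESeq2 (adding *Ifit1bl2* and *Isg20*), 3 with limma on log2(FPKM + 1) or log2(FPKM + 0.1), 2 under the minimum of 10 counts in each library, 2 with limma on log2(FPKM + 1) without a filter, 2 without the 2 libraries and 0 to 5 with 1 library left out. *Lgmn* was no longer called with no filter (-0.63), with limma on log2(FPKM + 1) without a filter (-0.62) and without the 2 libraries (-0.45), and ranged from -0.74 to -0.54 with 1 library left out, being called only without *Lgmn*-/- IR replicate 2 or 3.

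Same-numbered libraries come from different genotypes and did not deviate together (correlations -0.30, -0.048 and -0.047). The labels name no pairing, and these correlations cannot exclude one, so the main fit was made without it. With the replicate number as a block, 0 members and 0 pathway genes were called and *Lgmn* was not called either (log2 fold change -0.65, edgeR adjusted *p* = 0.113).

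Some values changed sign under some settings, most of them near 0 but also *Rsad2* (0.87), *Igtp* (0.44) and *Oas1a* (0.23), and none of these was called. On the FPKM scale *Samhd1* was at -0.0056 and *Gbp2* at -0.024 with a pseudocount of 1, with or without a filter, and at -0.0071 and -0.046 with one of 0.1. Without the 2 libraries the values were 0.049 for *Irf1*, -0.11 for *Irf8*, -1.26 for *Oas1a*, -0.055 for *Rsad2*, 0.10 for *Gbp7*, -0.57 for *Igtp*, 0.18 for *Irgm1*, -0.017 for *Iigp1*, 0.061 for *Dtx3l*, 0.027 for *Lgals3bp* and 0.020 for *Ifngr1*. With 1 library left out, the lowest and highest values were -0.20 and 0.63 for *Oas1a*, -0.075 and 0.17 for *Gbp2*, -0.12 and 0.39 for *Iigp1*, -0.31 and 0.00017 for *Parp9*, -0.074 and 0.31 for *Ifi35*, -0.099 and 0.096 for *Xaf1*, -0.085 and 0.11 for *Isg15*, -0.23 and 0.16 for *Lgals3bp*, -0.12 and 0.039 for *Ifngr1*, -0.023 and 0.21 for *Irf8*, -0.20 and 0.060 for *Gbp7* and -0.27 and 0.13 for *Ifi27*.

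The depth limits the members with few counts most: 4 of 45 could not be tested. No alternative that was planned was left out.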
